A study of Mus musculus and Rattus norvegicus with 30 samples.

Results

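Described here are the transcripts of the intermediate filament proteins of sensory neurons, together with an RNA read from the opposite strand of one of them. The members are Nefl, Nefm and Nefh (the light, medium and heavy neurofilament subunits), Ina (α-internexin), Prph (peripherin), Vim (vimentin) and LncRNA2754, a long noncoding RNA (LncRNA) that the authors assembled from mouse reads and that overlaps exons of Nefl on the opposite strand. They were chosen by gene symbol and make up 7 of the 54315 features of the mouse count table. The rat table, which has 39281 features, lists the 6 genes under the same symbols, and 2 of them, Ina and Prph, had any counts.

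RNA was sequenced from whole dorsal root ganglia (DRG), which house the cell bodies of sensory neurons beside the spinal cord, after nerve injury or sham surgery. Mice of the strains BALB/c and B10.D2 had either spared nerve injury (SNI), which cuts some branches of the sciatic nerve and spares another, or a sham operation, and the L3 and L4 ganglia of 1 animal per library were taken 28 days later. Counts were available for 6 BALB/c sham libraries (3 male, 3 female), 4 BALB/c SNI (2 male, 2 female), 5 B10.D2 sham (3 male, 2 female) and 5 B10.D2 SNI libraries (2 male, 3 female). In male Wistar rats the spinal nerve was transected (SNT) or a sham operation was done, and each of the 4 sham and 4 SNT libraries pooled the L5 ganglia of 3 animals taken after 21 days. No animal carried a transgene or a drug treatment according to the labels, which give no age. After SNI a ganglion holds cut and uncut neurons side by side.

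Intermediate filaments are rope-like polymers of the cytoskeleton. In large myelinated axons the light, medium and heavy neurofilament subunits assemble into the filaments that fill the axon and set its calibre, and the light chain is the core on which the others build. Peripherin is the filament protein typical of peripheral neurons, above all of small unmyelinated ones, α-internexin belongs mainly to developing and central neurons, and vimentin is made chiefly by nonneuronal cells such as fibroblasts, glia, endothelium and macrophages.

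Levels are given as CPM, the counts of a feature per 1000000 counts of the library, with the library's total first adjusted by trimmed-mean (TMM) scaling. Totals ran from 29989963 to 41881331 counts in mouse and from 11954612 to 17887909 in rat. Mouse libraries were made from RNA depleted of ribosomal RNA and rat libraries from poly-A RNA, so the levels of the species are not compared. All 12 general sensory neuron markers were counted in every mouse library. A sum of 5 skeletal muscle markers reached 1325 CPM in BALB/c sham library 50 and 522 CPM in BALB/c SNI library 49 and at most 94.0 CPM elsewhere. No call on a member in the BALB/c comparison was lost without either of them.

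Nefl (ENSMUSG00000022055) lies on the plus strand at chr14:68083863-68089095 (mm10, GENCODE M21) and has 1 annotated transcript of 4 exons. LncRNA2754 lies on the minus strand at chr14:68087301-68089062, in 2 exons of 213 and 1503 bases. Of its 1716 exonic bases, 1709 (99.6%) lie opposite the last exon of Nefl, 137 of them opposite coding sequence and 1572 (91.6% of the LncRNA) opposite the 3′ untranslated region (UTR), which spans 68087445 to 68089095. The LncRNA begins 33 bases inside the 3′ end of Nefl and covers 50.6% of the exonic bases of Nefl. The whole of it also lies within an intron of a long Nefm transcript on its own strand, Nefm-202. The distal exon of Nefm-202 (chr14:68082590-68084970) sits 2331 bases from LncRNA2754 and lies opposite 1108 bases of Nefl exons. No exonic base of LncRNA2754 was shared with an annotated Nefm exon.

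**Figure D1:**
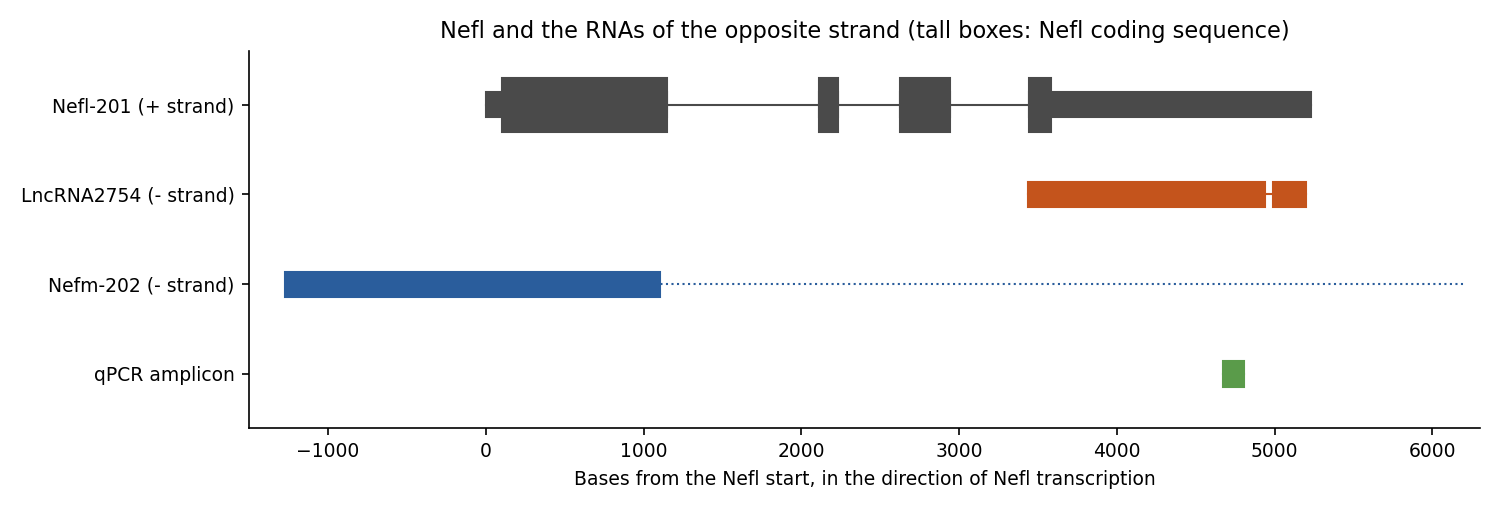
Map of the Nefl locus, with the distance in bases from the start of Nefl along the horizontal axis and 1 row per transcript or amplicon. Boxes are exons, with tall boxes for coding sequence of Nefl, and thin lines are introns (dotted where the Nefm-202 intron runs off the map). The LncRNA2754 exons lie under the last exon of Nefl, the 134-base qPCR amplicon lies within exon 2 of the LncRNA, and the distal Nefm exon lies under the first exon of Nefl.

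The intron of LncRNA2754 is 46 bases long, from 68088804 to 68088849, and 1 deposited minus-strand splice junction has the same ends. It is the 1 minus-strand junction that touches the span of the LncRNA, beside 7 deposited junctions on the plus strand. The sequences around its ends are shown because they bear on the strand from which the RNA was read. They were read from the reference genome on the minus strand, at chr14:68088838-68088859 for the donor side and at chr14:68088794-68088815 for the acceptor side, with the outermost intron bases in capitals.
LncRNA2754 donor: tcaagtagagGTaagtgaaaca
LncRNA2754 acceptor: cttcagttttAGataaaatttc
Read this way the intron begins with GT and ends with AG, the usual ends of a spliced intron. Read on the plus strand, in the direction of Nefl, the same bases are as follows.
Plus strand, left end: gaaattttatCTaaaactgaag
Plus strand, right end: tgtttcacttACctctacttga
On that strand the interval begins with CT and ends with AC. The strand of the deposited junction may itself have been assigned from these bases, so they are not taken as separate evidence. The study also ran strand-specific reverse transcription and qPCR on this RNA, because its primers detected a putative UTR as well. It reports that qPCR bore out the significant RNA-seq changes of the LncRNAs it tested. In B10.D2 the strand-specific assay had fewer samples than the other qPCR assays. The primers are shown because they fix which part of the RNA that assay reads.
Forward primer: gtagtgcaagctttgtcgtgg
Reverse primer: ttgcgtgctgcattggtatt
The reverse primer is also the reverse transcription primer. It has the sequence of the plus strand (68088534 to 68088553) and so pairs with RNA of the minus strand. The forward primer has the sequence of the minus strand (68088647 to 68088667). The amplicon of 134 bases lies wholly in exon 2 of LncRNA2754, opposite the 3′ UTR of Nefl, and does not reach the splice junction.

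The other members lie apart. Nefm (ENSMUSG00000022054) spans chr14:68082590-68124846 on the minus strand, so that its long transcript runs across the whole of Nefl. Nefh (ENSMUSG00000020396) is at chr11:4938754-4948064 on the minus strand. Ina (ENSMUSG00000034336) is at chr19:47014698-47025327, Prph (ENSMUSG00000023484) at chr15:99055174-99058978 and Vim (ENSMUSG00000026728) at chr2:13573927-13582826, each on the plus strand.

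Nefl was among the most abundant transcripts of the mouse ganglion. Per kilobase of merged exons it averaged 1271 ± 243 CPM per kb (SD, n = 20 libraries), which ranked 2 among 21734 protein-coding genes in the sham libraries. Prph followed at 623 ± 59.1 CPM per kb (rank 11), Nefh at 310 ± 80.8 (rank 36), Nefm at 201 ± 45.8 (rank 65) and Vim at 118 ± 19.01. Ina, at 5.59 ± 0.587 CPM per kb, ranked 6948, and LncRNA2754 was lowest at 3.10 ± 0.691 CPM per kb. Each gene in this order was higher than the next in 20 of 20 libraries, except that Nefm exceeded Vim in 17. The middle of the order depends on the length used. With the median length of the annotated transcripts, Vim (415 ± 66.7 CPM per kb), Nefm (331 ± 75.6) and Nefh (310 ± 80.8) came in that order, with Vim above Nefm in 13 of 20 libraries and Nefm above Nefh in 12, so these 3 could not be ordered, while Nefl and Prph stayed first and Ina and LncRNA2754 last.

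The first question is what nerve injury did to these transcripts. In both strains Nefl, Nefm, Nefh and LncRNA2754 fell and Vim rose, while Prph and Ina did not pass the test. Of these falls, by fitted level, Nefm in B10.D2 fell by 24.8%, the least, and Nefh in BALB/c fell by 38.4%, the most. That is 5 of 7 members called in BALB/c, where 9.69% of all 24685 features tested were called (4.87% lower and 4.82% higher), and the same 5 of 7 in B10.D2, where 4.58% were called (2.48% lower and 2.1% higher). Calls are edgeR quasi-likelihood tests over all features at a Benjamini-Hochberg adjusted p of 0.05. In whole ganglia, fewer cells of a type and less RNA per cell cannot be told apart.

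Nefl, the filament core subunit, ranged from 4181 to 4872 CPM in the 6 BALB/c sham libraries, with a median of 4685. In the BALB/c SNI libraries it was 3672 and 3790 CPM in the males (49 and 70) and 3136 and 3083 CPM in the females (64 and 65). All 4 SNI libraries lay below every sham library, and the fitted log2 fold change was -0.43 (SE 0.055, 95% interval -0.54 to -0.31, edgeR adjusted p 2.78e-05), and the level fell by 25.5%. In B10.D2 the 5 sham libraries had 5984, 5603 and 5154 CPM in the males and 4959 and 4599 CPM in the females, and the SNI libraries had 4238 and 4104 CPM in the males and 3447, 3134 and 3545 CPM in the females. The groups again did not overlap. The log2 fold change was -0.47 (SE 0.054, 95% interval -0.58 to -0.36, edgeR adjusted p 1.99e-05), and the level fell by 27.8%.

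Nefm, whose long tail projects from the filament, had 1159 to 1578 CPM in BALB/c sham libraries (median 1396) and 897, 960, 793 and 1085 CPM in the SNI libraries. The groups did not overlap, and the log2 fold change was -0.57 (SE 0.117, edgeR adjusted p 0.00272). In B10.D2 Nefm was less even. Sham libraries had 1321, 1508, 1171, 1305 and 1123 CPM, the 3 female SNI libraries 750, 686 and 888 CPM, and the 2 male SNI libraries (89 and 90) 1155 and 1264 CPM. The female SNI libraries lay below all sham libraries and the male ones among them, and its fitted fall (log2 -0.41, SE 0.113, edgeR adjusted p 0.0404) lost its call without any 1 of 7 libraries (sham 58, 60, 67 or 77 or SNI 69, 76 or 78), with adjusted p up to 0.12, and without a sex term (edgeR adjusted p 0.0724).

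Nefh, the heavy subunit of large myelinated axons, changed most of the 3 in BALB/c by its fitted value. It had 1441 to 1793 CPM in BALB/c sham libraries (median 1620) and 1064, 879, 923 and 1118 CPM in the SNI libraries, so that its level fell by 38.4% (log2 fold change -0.70, SE 0.079, edgeR adjusted p 4.76e-06). In B10.D2 it had 1539, 1499, 1283, 1145 and 1126 CPM in sham and 818, 790, 917, 1010 and 1012 CPM in SNI libraries. No SNI library reached a sham library in either strain, and the B10.D2 log2 fold change was -0.50 (SE 0.076, edgeR adjusted p 3.59e-04).

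LncRNA2754 was counted 116 to 265 times per library. It had 5.40 to 6.65 CPM in the BALB/c sham libraries (median 6.13) and 4.41, 3.59, 4.10 and 4.88 CPM in BALB/c SNI libraries 49, 64, 65 and 70, all below every sham library. In B10.D2 sham libraries it had 7.34, 5.91, 5.43, 7.05 and 5.48 CPM. The B10.D2 SNI libraries had 3.96, 2.96 and 4.12 CPM in the females and 5.86 and 5.01 CPM in the males. Of these, 4 of 5 lay below every sham library and male library 89 lay among them. Its fitted level fell by 30.3% in BALB/c (95% interval of the log2 fold change -0.79 to -0.25, edgeR adjusted p 0.0135). In B10.D2 it fell by 28.5% (95% interval -0.75 to -0.22, edgeR adjusted p 0.0302). The BALB/c call was lost without SNI library 64 (edgeR adjusted p 0.0537). The B10.D2 call was lost without any 1 of sham libraries 58, 67 and 77 or SNI libraries 69, 76, 78 and 90, with adjusted p up to 0.115. Fitted on the libraries of B10.D2 alone, LncRNA2754 and Nefm were not called in that strain (edgeR adjusted p 0.0972 and 0.0703). The study singled this RNA out on these same libraries, so its fall is not independent evidence of a direction.

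Prph and Ina overlapped between sham and SNI in both strains. Prph had 1149 to 1391 CPM in BALB/c sham and 1069 to 1347 CPM in BALB/c SNI libraries, with log2 fold changes of -0.09 in BALB/c (95% interval -0.25 to 0.06, edgeR adjusted p 0.508) and -0.11 in B10.D2 (95% interval -0.26 to 0.04, edgeR adjusted p 0.505). Ina had 16.1 to 19.1 CPM in BALB/c sham and 16.4 to 18.1 CPM in SNI libraries, with log2 fold changes of -0.05 (95% interval -0.24 to 0.14) and -0.06 (95% interval -0.25 to 0.12). These intervals do not reach the fall of Nefl in either strain.

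Vim, the one member typical of nonneuronal cells, moved the other way. BALB/c sham libraries had 469 to 534 CPM (median 491) and SNI libraries 693, 662, 699 and 728 CPM. In B10.D2, sham libraries had 514, 481, 469, 461 and 489 CPM and SNI libraries 667, 565, 627, 572 and 611 CPM. Every SNI library was above every sham library of its strain. The log2 fold changes were 0.49 in BALB/c (SE 0.048, edgeR adjusted p 8.88e-07), a rise of 40.6%, and 0.34 in B10.D2 (SE 0.049, edgeR adjusted p 1.84e-04), a rise of 26.8%. Counting groups that do not overlap, 5 of 7 members in BALB/c and 3 of 7 in B10.D2 (Nefl, Nefh and Vim) were so placed, against 10.2% and 5.98% of the 18593 features that averaged 1 CPM or more.

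**Figure D2:**
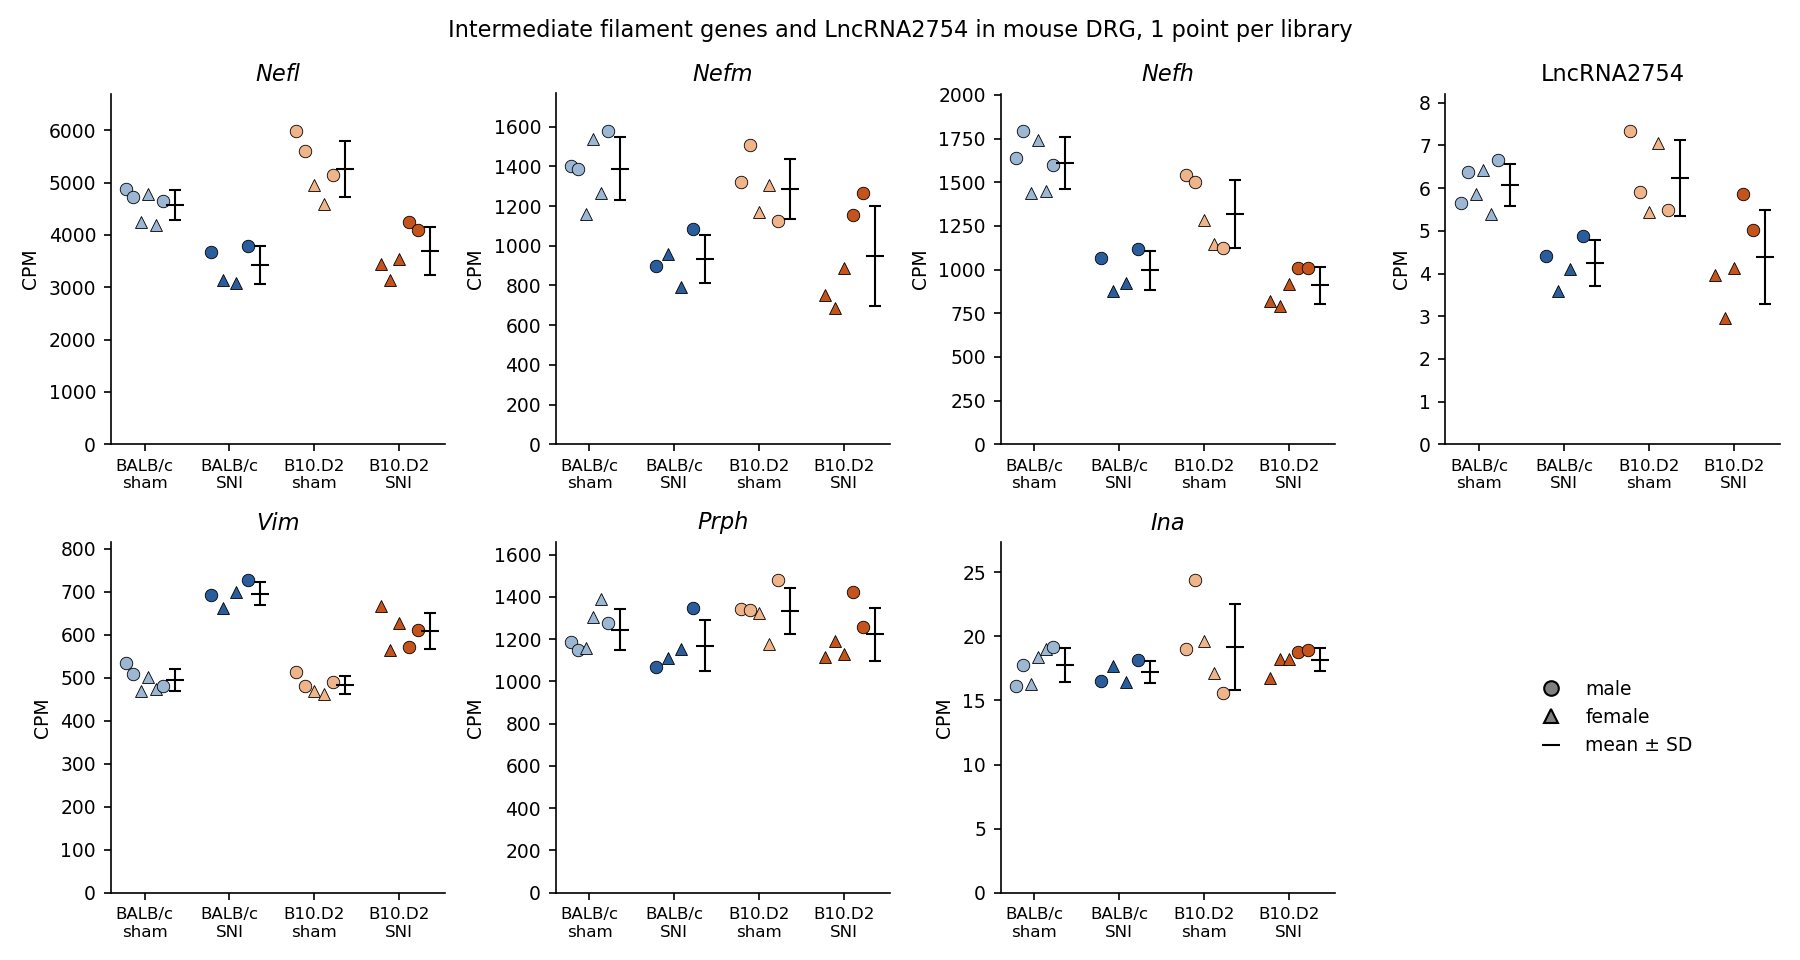
CPM of each member in each of the 20 mouse libraries (circles male, triangles female), by strain and surgery, with the mean and SD of each group as a bar. Every axis starts at 0. The SNI libraries lie below all sham libraries of their strain for Nefl and Nefh and above them for Vim, the B10.D2 groups overlap for Nefm and LncRNA2754, and all groups overlap for Prph and Ina.

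Summed levels of cell type markers were read in the same comparisons. Of the sums given here, only that of large myelinated neurons in BALB/c did not overlap between sham and SNI. The summed level of 11 markers of large myelinated neurons ranged from 2041 to 2146 CPM in BALB/c sham and from 1539 to 1926 CPM in BALB/c SNI libraries, and from 1631 to 2015 and 1429 to 1643 CPM in the B10.D2 groups. Summed levels of 12 general sensory neuron markers were 7175 to 8365 CPM and 7411 to 7953 CPM in BALB/c sham and SNI, and 8137 to 8570 CPM and 7448 to 8823 CPM in B10.D2. For 8 macrophage markers the sums were 74.0 to 185 CPM and 135 to 218 CPM in BALB/c, and 151 to 181 CPM and 166 to 271 CPM in B10.D2, and none of these 8 markers was at 0 in any mouse library. The 6 fibroblast markers summed to 1337 to 2013 CPM and 1527 to 2650 CPM in BALB/c, and to 1577 to 1613 CPM and 1425 to 2409 CPM in B10.D2. The part of these cell types in the changes of the neurofilaments and of Vim was not tested. Relative to the summed general neuron markers of the same library, Nefl, Nefm and Nefh were lower after SNI and Vim higher. The log2 differences of the neurofilaments were -0.39, -0.54 and -0.67 in BALB/c and -0.45, -0.41 and -0.47 in B10.D2. For Vim they were 0.52 and 0.39. The adjusted p was 0.0163 for each by exact two-sided permutation tests, except 0.0476 for Nefm in B10.D2. Sex was not part of these permutation tests. Of these markers, Snap25 was itself called lower in both strains and Stmn2 higher in BALB/c. They do not single out large myelinated neurons, so a change in the share of those neurons was not tested by this ratio.

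**Figure D3:**
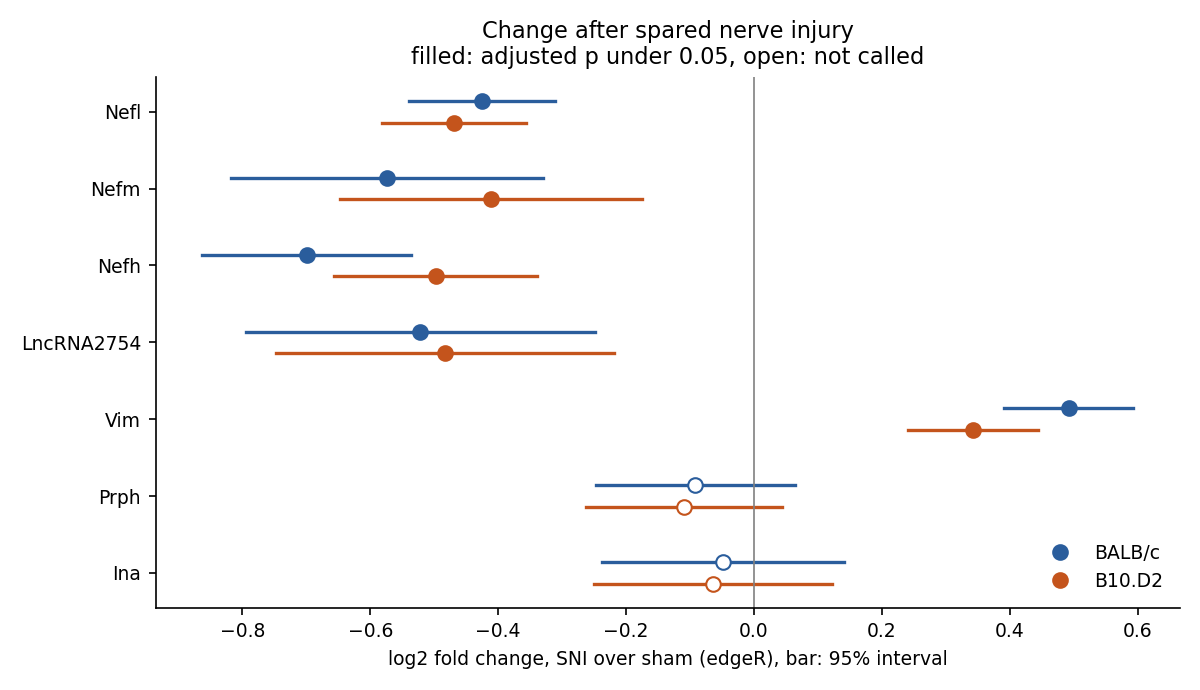
Fitted log2 fold change of SNI over sham for each member in BALB/c (blue) and B10.D2 (orange), with 95% intervals from edgeR and a line at 0. Filled points were called and open points were not. Nefl, Nefm, Nefh and LncRNA2754 lie between -0.70 and -0.41, Vim at 0.49 and 0.34, and Prph and Ina between -0.11 and -0.05 with intervals that include 0.

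The strains were then compared. The difference between the injury changes of the strains (the strain-by-injury interaction) was called for 0 of 7 members, where 0.0243% of all features were called (6 features). At an unadjusted p under 0.05 there was 1 member, Vim (log2 difference of B10.D2 minus BALB/c -0.15, 95% interval -0.29 to -0.01, unadjusted p 0.0419 in edgeR), and 1073 features in all, and DESeq2 also called 0 of 7. For LncRNA2754 the difference was 0.04 with a 95% interval of -0.34 to 0.42. Within sham animals, Nefl was higher in B10.D2 (log2 fold change 0.18, SE 0.051, edgeR adjusted p 0.0163) and Nefh lower (-0.31, SE 0.073, edgeR adjusted p 0.00305), which is 2 of 7 members where 21.6% of features were called. The Nefl call was lost without B10.D2 sham library 58 or 67 (edgeR adjusted p 0.0551 and 0.0685), without a sex term (0.0884) and when scaled to the neuron markers (0.186). Lower and higher calls were 10% and 11.5% of features. Within SNI animals Vim was lower in B10.D2 (-0.19, SE 0.051, edgeR adjusted p 0.0102), which is 1 of 7 where 20.8% were called (9.98% lower), and the call was lost without B10.D2 SNI library 89 (edgeR adjusted p 0.0559). Nefl, not called within SNI (0.13, edgeR adjusted p 0.113), was called without B10.D2 SNI library 76 (0.17, edgeR adjusted p 0.0444).

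Ratios within a library do not depend on its total, so they show whether the filament genes moved by unequal amounts. Each ratio to Nefl was compared between SNI and sham by an exact two-sided permutation test, adjusted over 10 tests by Benjamini-Hochberg. Unlike the edgeR fits, the ratio tests exchanged libraries without regard to sex. In BALB/c, Nefh fell further than Nefl. The log2 ratio of Nefh to Nefl was -1.51 ± 0.067 in sham (SD, n = 6) and -1.78 ± 0.041 in SNI (SD, n = 4), with all 4 SNI libraries below all sham libraries, a difference of -0.27 (exact permutation adjusted p 0.019). In B10.D2 the ratio was -2.002 ± 0.113 and -2.02 ± 0.053 (SD, n = 5 each), a difference of -0.02 (exact permutation adjusted p 0.802). The difference between the strains in this change was 0.25, and a permutation test, chosen after the data were seen and adjusted over 6 ratios, gave an adjusted p of 0.00196. It exchanged strain labels separately within the sham and the SNI libraries, on residuals from strain and surgery. The raw unadjusted p was 3.26e-04 over 58212 arrangements.

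The ratio of Nefm to Nefl did not pass the test. It differed by -0.15 in BALB/c (exact permutation adjusted p 0.131) and 0.04 in B10.D2 (exact permutation adjusted p 0.767). Prph and Ina, which did not pass the test on their own, rose relative to Nefl, by 0.33 and 0.38 in BALB/c (exact permutation adjusted p 0.0272 each) and by 0.39 and 0.45 in B10.D2 (exact permutation adjusted p 0.019 each). Of the SNI libraries, 3 of 4 in BALB/c and 5 of 5 in B10.D2 lay above all sham libraries for each of these ratios. Without SNI library 64, 65 or 70 the BALB/c rises of Prph and Ina no longer passed (exact permutation adjusted p 0.0595 to 0.068). The Vim ratio rose by 0.92 and 0.84 (exact permutation adjusted p 0.019 in each strain), with every SNI library above every sham library. The smallest unadjusted p possible was 0.00952 with the BALB/c libraries and 0.00794 with the B10.D2 libraries.

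The LncRNA and its sense gene were compared in the same way. Counts of the LncRNA made up 0.133 ± 0.0093% of Nefl counts in BALB/c sham (SD, n = 6), 0.124 ± 0.0083% in BALB/c SNI (SD, n = 4), 0.119 ± 0.020% in B10.D2 sham and 0.117 ± 0.016% in B10.D2 SNI libraries (SD, n = 5 each). Over all 20 libraries this share ran from 0.0945 to 0.153%. The groups overlapped in both strains. The log2 ratio differed by -0.10 in BALB/c (exact two-sided permutation p 0.162, adjusted 0.324 over 2 tests) and by -0.02 in B10.D2 (exact permutation p 0.857), so a difference in their falls was not detectable, which does not show that none exists. Without BALB/c sham library 50, which had the highest muscle marker sum, the BALB/c difference was -0.13 (exact permutation p 0.0317, unadjusted). The 116 to 265 counts of the LncRNA per library limit the precision of this share.

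The relation of LncRNA2754 with Nefl was then followed from library to library. Since the 4 groups stand apart in level, each library's log2(CPM + 1) was taken as a deviation from the mean of its own group. The deviations had the same sign in 17 of 20 libraries, 5 of 6 in BALB/c sham, 4 of 4 in BALB/c SNI, 3 of 5 in B10.D2 sham and 5 of 5 in B10.D2 SNI. Pearson's r was 0.71 (permutation p within groups 0.00418, adjusted 0.00836 over 2 relations) and Spearman's rho 0.64 (permutation p 0.0129, adjusted 0.0258). Without the 2 libraries farthest from the median of Nefl, B10.D2 SNI libraries 76 and 89, r was 0.56, and leaving out 1 library at a time gave r from 0.62 to 0.88. BALB/c sham, the only group of 6 libraries, gave r 0.53 (exact permutation p 0.308) and rho 0.26 (exact permutation p 0.658) on its own, and r was -0.90 over the 4 libraries left without its 2 farthest. The other groups, of 4 or 5 libraries, were not tested alone. In B10.D2 SNI the 5 libraries had the same order for both RNAs, with the 2 males highest.

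**Figure D4:**
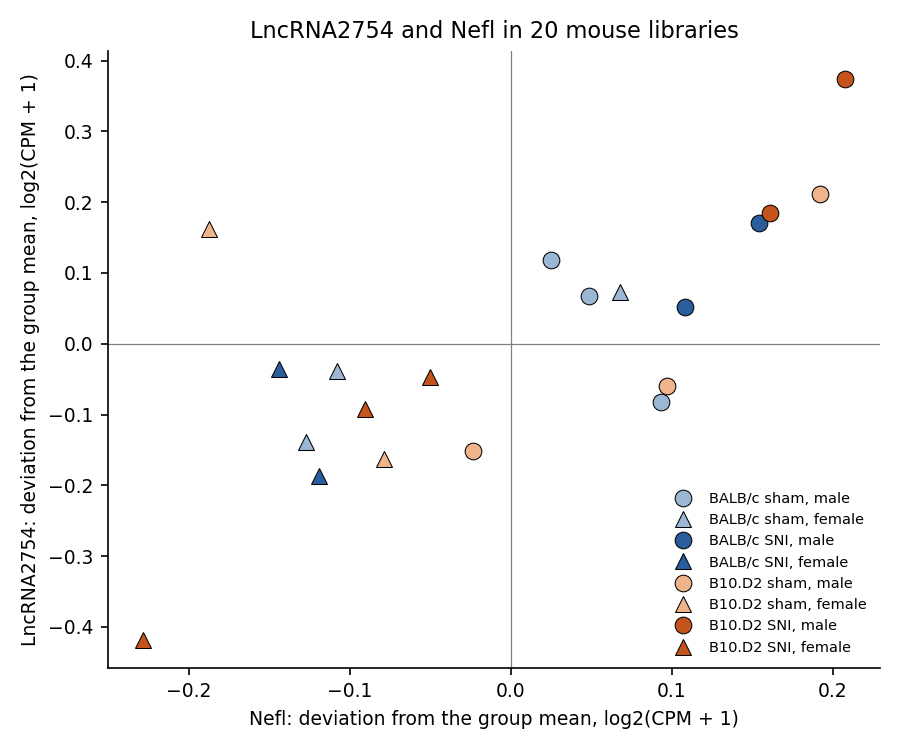
Deviation of LncRNA2754 (vertical axis) against that of Nefl (horizontal axis) from the group mean, both in log2(CPM + 1), for 20 mouse libraries coloured by group (circles male, triangles female). Points in the upper right and lower left moved together, which holds for 17 of 20 libraries. The 2 male B10.D2 SNI libraries lie at the upper right and female B10.D2 SNI library 76 at the lower left.

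Sex ran along with this relation. In each of the 4 mouse groups the male mean of Nefl was above the female mean, by 4747 against 4401 CPM in BALB/c sham, 3731 against 3110 CPM in BALB/c SNI, 5580 against 4779 CPM in B10.D2 sham and 4171 against 3375 CPM in B10.D2 SNI. The fitted log2 difference of female minus male was -0.22 (SE 0.038, edgeR adjusted p 0.0101), and Nefl was the 1 member called of 7, where 0.243% of features (60) were called, 0.101% lower in females. For Nefm, Nefh and LncRNA2754 the differences were -0.26, -0.21 and -0.21 (edgeR adjusted p 0.185, 0.121 and 0.341). The Nefl call was lost without B10.D2 SNI library 89 (edgeR adjusted p 0.0582), and Nefh was called without BALB/c sham library 56 (edgeR adjusted p 0.0355) or B10.D2 sham library 88 (edgeR adjusted p 0.0258). The summed general neuron markers also differed, at 7175 to 8247 CPM (mean 7756) in 10 female and 7744 to 8823 CPM (mean 8226) in 10 male libraries. Scaled to these markers, the Nefl difference was -0.14 (edgeR adjusted p 0.0584) and 0 of 7 members were called. With sex also removed from the deviations, r of LncRNA2754 with Nefl was 0.59 (permutation p 0.0188) and rho 0.49 (permutation p 0.0536).

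The 5 features most like Nefl and the 5 most like LncRNA2754 had none in common. By r of the same deviations over 20 libraries, among 18592 features averaging 1 CPM or more, those closest to Nefl were Pkm (0.94), Lynx1 (0.93), Tubb3 (0.93), Calm3 (0.92) and Acsl6 (0.92). These code for a glycolytic pyruvate kinase, a modulator of nicotinic acetylcholine receptors, neuronal β-tubulin, calmodulin and an acyl-CoA synthetase. Nefh ranked 10 (r 0.90), Nefm 165 (r 0.76) and LncRNA2754 290 for likeness to Nefl. Closest to LncRNA2754 were Lyrm1 (0.84), Atpaf1 (0.80), Sbsn (0.80), Sec22b (0.79) and Map7d2 (0.79), with Nefm at rank 14 (r 0.74), Nefl at 29 and Nefh at 104 (r 0.65). Prph (r 0.42), Vim (0.41) and Ina (0.30) were less like Nefl. All these values share the same libraries and depths and are given as descriptions.

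LncRNA2754 and Nefl were set beside the other antisense pairs of the mouse table, 317 pairs of an assembled LncRNA and a protein-coding gene with overlapping exons on opposite strands, both with a mean of at least 1 CPM. The median r over the pairs was 0.05, and 6 pairs (1.89%) were at or above the 0.71 of LncRNA2754 and Nefl, itself included. The LncRNA's counts as a share of the gene's were 11.5% in the median pair and 0.124% here, at or below which lay 6 pairs. That place depends on the floor of 1 CPM. With pairs down to 0.1 CPM included, the median share was 2.78%, and 94 of 788 pairs lay at or below that of LncRNA2754. Most of the pairs overlap over a small part of the LncRNA. Of the 12 whose LncRNA lies opposite the gene's exons over at least 90% of its exonic bases, the median share was 0.137%. With pairs down to 0.1 CPM there were 88 such pairs, with a median of 0.098%, and 48 lay at or below the share of LncRNA2754. The share divides by the level of the gene, and every LncRNA here averaged at least 1 CPM, so a gene of low level could not have a small share. The levels of the LncRNAs overlapped. These 12 were divided by gene level after the values were known, and the gap in their shares is in part set by that floor. The 7 with a gene of at least 500 CPM (778 to 8554 CPM, Nefl among them, with 2 LncRNAs opposite Map1b and 1 each opposite Prune2, Phf24, Tppp3 and Ywhah) had LncRNAs of 1.02 to 6.70 CPM and shares from 0.0382 to 0.139%. The 5 with a gene of 1.46 to 39.3 CPM had LncRNAs of 1.31 to 6.45 CPM and shares from 4.03 to 441%.

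**Figure D5:**
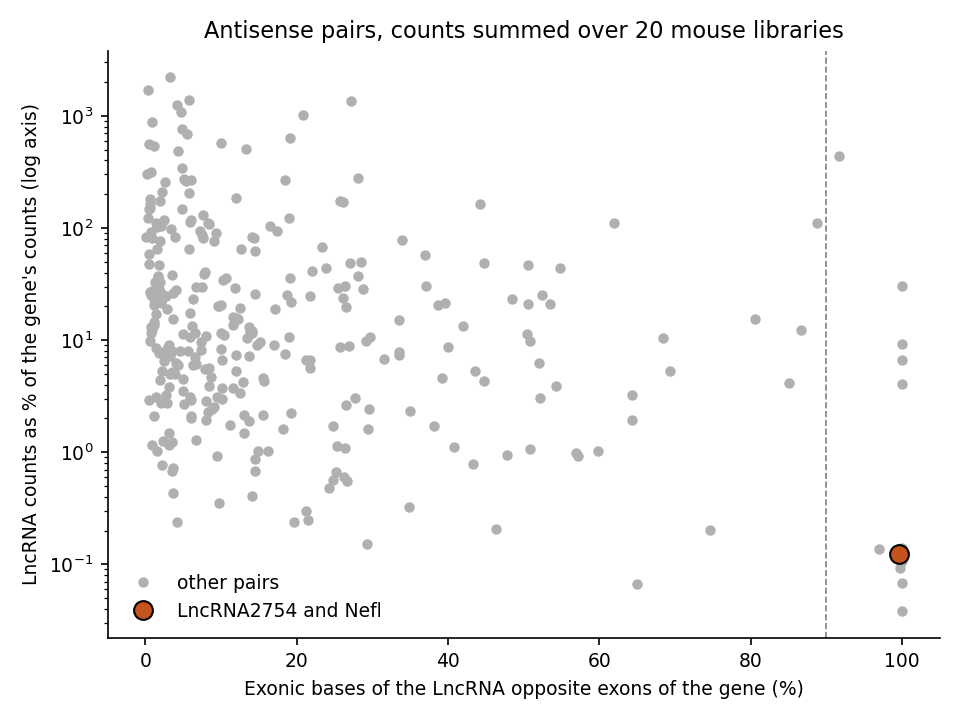
LncRNA counts as a percentage of the sense gene's counts (vertical log axis, summed over 20 mouse libraries) against the percentage of the LncRNA's exonic bases that lie opposite exons of the gene, for 317 antisense pairs. LncRNA2754 with Nefl is marked in orange. The dashed line marks 90% overlap, to the right of which pairs lie either between 0.0382 and 0.139% or at 4.03% and above. Both RNAs of a pair average at least 1 CPM, so a gene of low level cannot have a small share.

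The strand of the reads bears on the counts of LncRNA2754. The library kit marked strand with dUTP. The authors resolved reads on more than 1 feature with HTSeq's intersection-nonempty mode, while the strand setting of the counting is not given in the sources used here. Without strand, reads of LncRNA2754 and Nefl cannot be told apart over the 1709 shared bases, and 7 exonic bases of the LncRNA lie outside them. How many of the counts of LncRNA2754 came from Nefl RNA was not tested, and this limit holds whichever strand setting was used. The level of LncRNA2754, its change and its relation with Nefl are therefore those of the deposited counts.

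The other genes of the filament system follow. Over all features, 4.87% were called lower and 4.82% higher in BALB/c, and 2.48% and 2.1% in B10.D2. Of 13 tested genes of other intermediate filaments (glial, muscle, lamin, keratin and lens types), 3 rose in BALB/c and 0 fell, with a median log2 fold change of -0.01 beside 0.00 over all features. Those with the largest rise were Krt19 (1.62, edgeR adjusted p 5.57e-04), a keratin of simple epithelia, and Gfap (1.36, edgeR adjusted p 0.0465), the filament of reactive glia. In B10.D2 edgeR called 0 of 13, with 3 at an unadjusted p under 0.05, and DESeq2 called 1. Of 28 genes that link, phosphorylate, transport or degrade neurofilaments, 0 rose and 4 fell in BALB/c, with a median of -0.07. Mapk10, a stress-activated kinase, changed by -0.31 (edgeR adjusted p 0.0381). In B10.D2 0 rose and 1 fell, with a median of -0.05.

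The neuronal lists are given by type, beside shares over all features of 4.87% lower and 4.82% higher in BALB/c and 2.48% and 2.1% in B10.D2. A single call in a list is not read as a change of that cell type. Of 11 markers of large myelinated neurons, which carry most neurofilament, 6 fell in BALB/c, 5 fell in B10.D2 and 0 rose in either, with medians of -0.36 and -0.30. The largest falls were of Pvalb (-0.95 and -1.26), a calcium-binding protein of proprioceptors, and Etv1 (-0.55 and -0.53), a transcription factor of the same neurons. Of 10 markers of small unmyelinated neurons, 1 fell in each strain, with medians of -0.09 and -0.05. Of 12 general neuron markers, Snap25 fell in both strains (-0.51 and -0.43) and Stmn2 rose in BALB/c (0.29). Genes known to rise after axotomy were called higher in 10 of 10 cases in BALB/c and 9 of 10 in B10.D2, with medians of 2.39 and 1.39. Among markers of other cells, 3 of 8 macrophage, 1 of 7 satellite glia, 1 of 8 Schwann, 1 of 6 fibroblast and 1 of 6 endothelial markers rose in BALB/c, and 1 of 7 satellite glia and 1 of 6 fibroblast markers rose in B10.D2. There edgeR called 0 of 8 macrophage markers, with 7 at an unadjusted p under 0.05 and 1 called by DESeq2, 0 of 8 Schwann markers (1 and 0) and 0 of 6 endothelial markers (0 and 0). None of the 5 skeletal muscle markers was called in either strain, by edgeR or DESeq2 or at an unadjusted p under 0.05.

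In rat the family could be followed in part. Nefl, Nefm, Nefh and Vim were listed at 0 in all 8 libraries, and 3 counts correspond to at most 0.251 CPM in these libraries. The zeros reach beyond this family. Of the 39281 rat features, 17036 were listed at 0 in every library, and so were 776 (38.0%) of the 2040 genes whose symbol averaged at least 100 CPM in mouse, Actb, the cytoplasmic β-actin of nearly all cells, among them. These zeros are therefore not read as absence of expression, and rat CPM and list sums cover only the genes with counts. Ina had 70.6, 123, 80.4 and 88.7 CPM in the sham libraries and 117, 112, 82.1 and 136 CPM in the SNT libraries. The groups overlapped, and the log2 fold change was 0.30 (95% interval -0.13 to 0.73, edgeR adjusted p 0.257). Prph had 3550, 5042, 4664 and 4523 CPM in sham and 5377, 4021, 3460 and 5453 CPM in SNT libraries, also overlapping, with a log2 fold change of 0.04 (95% interval -0.39 to 0.48, edgeR adjusted p 0.887). So 0 of 2 members were called, where 27.4% of 13690 features were called (15.1% lower and 12.3% higher), and the count was also 0 of 2 at an unadjusted p under 0.05 and with DESeq2. Leaving out 1 rat library at a time kept 0 of 2, while the features called went from 3753 to between 1483 (without the sham library with 80.4 CPM of Ina) and 5041 (without the SNT library with 117 CPM of Ina), a change of over 1.5 times in 6 of 8 such fits.

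The rat neuron lists moved in the same comparison, where 15.1% of all features were called lower and 12.3% higher. Of the counted markers, 5 of 6 general neuron, 6 of 7 large myelinated and 4 of 8 small unmyelinated markers fell and 0 rose. The general list summed to 3986 to 5376 CPM in sham against 2710 to 4737 CPM in SNT, which overlap. The other neuron sums did not overlap. They were 1581 to 2524 CPM against 832 to 1451 CPM for large myelinated neurons. For small unmyelinated neurons they were 2351 to 4036 CPM against 396 to 2283 CPM. Scaled to the general neuron markers, Ina was called higher, with a log2 fold change of 0.61 (edgeR adjusted p 0.0386), on a scale that moves the median of all features by 0.33. The part of neuron content in the values of Ina and Prph was not tested. Of 8 other intermediate filament genes tested in rat, 3 rose, with Des (1.06, edgeR adjusted p 0.013), the muscle filament, and Lmna (0.75, edgeR adjusted p 0.013), a nuclear lamin, the largest, and Synm fell (-1.20, edgeR adjusted p 0.0148). Of 17 neurofilament handling genes 1 rose (Arhgef28, 0.49) and 2 fell (Cdk5, a neurofilament kinase, -0.59, and Cdk5r2, its activator, -0.75).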

How the data were processed

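Libraries of rat L5 and mouse L3 and L4 ganglia were stranded and read from both ends. The authors aligned the reads with STAR to mm10 (GRCm38) or rn6 (Rnor_6.0) and used HTSeq to count them over known genes together with the LncRNAs they had assembled (intersection-nonempty mode), per the labels and the study's methods. The submitters' processing notes also name SAMtools and DESeq2, and tool versions and the strand setting of the counting are not given in the sources used here. The deposited tables give these as raw, whole-number counts for each feature. The deposited result tables, which hold the authors' own mean signal, log2 fold change, its standard error and p-value per feature, were used only to pair identifiers with symbols. The deposited annotation files gave exon and splice junction positions. Of 22 mouse samples in the labels, 20 have a column in the count table. B10.D2 sham 59 and BALB/c SNI 66 were not analysed here.

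Counts were fitted across all features in R 4.3.3 with edgeR 4.0.16 (quasi-likelihood F test, TMM scaling, edgeR's filter on low counts, Benjamini-Hochberg adjustment over all features tested, threshold 0.05). The mouse fit held the 4 groups and sex over 20 libraries, and the rat fit the 2 groups over 8. Each mouse library is 1 animal. Depth was 29989963 to 41881331 counts per mouse library and 11954612 to 17887909 per rat library, and no 2 libraries held identical counts. Floors from counts cover counting error only. The intervals of fold changes came from the edgeR fits and include the spread between libraries. Ratios within a library used a pseudocount of 0.5 and exact permutation tests, the relation of LncRNA2754 with Nefl used log2(CPM + 1) and 100000 permutations within groups (Python 3.11.15, scipy 1.17.1), and gene positions came from GENCODE M21. Per-kilobase levels divide CPM by the length of the gene's merged exons. Sequences were read from the reference genome at those coordinates or are the study's primers. Scripts were tested on simulated data. With 100 changes of each size put in, the rat fit recovered 7% of 1.5-fold and 54% of 2-fold changes. The BALB/c fit recovered 70% and 89%, and the B10.D2 fit 79% and 99%.

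Alternatives were DESeq2 1.42.0, its size factors, other filters (none, or at least 10 counts in every library), scaling to 12 neuron markers, no sex term, 1 strain alone, another pseudocount (5) and leaving out each library. Separate sham and SNI fits for sex and a fit without the male B10.D2 SNI libraries were added after the data were seen, as was the comparison of ratio changes between strains. The members, gene lists and tests were chosen with earlier results of these data known. All members are named wherever counted, other lists by counts with at most the 2 largest called changes per direction, and likeness by the 5 highest r. Rat run numbers shared by a sham and an SNT library were not taken as pairs, since the deviations of such libraries correlated at -0.29 to 0.05. No rat positions were used. Some genes counted in the lists are not reported here by name.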

Additional observations from a re-analysis of the deposited data

Results flagged for a closer look

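The ratio of Nefh to Nefl changed by different amounts after injury in the strains. The log2 ratio moved by -0.27 in BALB/c and by -0.02 in B10.D2, and the B10.D2 minus BALB/c difference was 0.25 (permutation of strain labels within sham and within SNI libraries on residuals, 58212 arrangements, adjusted p 0.00196 over 6 ratios). The test was chosen after the data were seen. All 4 BALB/c SNI libraries lay below the BALB/c sham libraries for this ratio, and the B10.D2 groups overlapped. In sham animals the ratio was already lower in B10.D2, at -2.002 ± 0.113 (SD, n = 5) against -1.51 ± 0.067 (SD, n = 6) in BALB/c. For the fold change of Nefh itself the difference between strains was 0.20 (unadjusted p 0.0772 in edgeR) and was not called. The strain differences for the other 5 ratios had adjusted p of 0.638 to 0.672. Among 36 sets of 4 to 6 libraries, no library stood apart from its group by Dixon's test, which flags about 1 set in 20 by chance.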

How the results depend on the processing

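The calls on Nefl, Nefh and Vim after SNI held in both strains under every alternative run, and the weakest were those on Nefm and LncRNA2754 in B10.D2. Counts of members called moved as follows. The count after SNI in B10.D2 was 4 without a sex term (Nefm lost) and 3 with libraries of that strain alone. Between strains in sham animals it was 1 when scaled to neuron markers and 1 without a sex term. For sex it was 2 with DESeq2 (Nefl and Nefh), 3 without a filter on low counts (Nefl, Nefm and Nefh), 0 when scaled to neuron markers and 0 in sham libraries alone, the last added after the data were seen. In rat it was 1 when scaled to neuron markers. Among antisense pairs, 0.888% had an r at or above that of LncRNA2754 and Nefl when pairs down to 0.1 CPM were included.

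Some directions turned. Scaled to neuron markers, the B10.D2 minus BALB/c log2 difference of LncRNA2754 was -0.057 in sham and -0.014 in SNI and that of Nefm in SNI was -0.042, and the female minus male difference was 0.036 for Ina and 0.038 for Vim. With SNI libraries alone the sex difference of Vim was 0.013. The rat change of Prph was -0.030 without the 2 libraries nearest the midpoint of the first principal component. Ratios taken to the neuron markers in place of Nefl were -0.018 for Ina and -0.062 for Prph in BALB/c and -0.41 for Nefm, -0.0013 for Ina and -0.068 for Prph in B10.D2. None of these was called before or after except Prph and Ina, which had passed relative to Nefl, and Nefm, which passed relative to the markers. A log2 ratio to the markers differs from one to Nefl by the change of Nefl relative to the markers. That change was -0.39 in BALB/c and -0.45 in B10.D2, so these ratios turned with their denominator. The cause of the other turns was not tested.

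Leaving out 1 library at a time gave these ranges. Members called were 3 to 5 after SNI in B10.D2, 1 to 2 between strains in sham, 0 to 2 between strains in SNI, 0 to 2 for sex and 2 to 4 for the BALB/c ratios. The log2 ratio of LncRNA2754 to Nefl changed by -0.13 to -0.058 in BALB/c and by -0.084 to 0.072 in B10.D2. After SNI in B10.D2 the change of Ina was -0.13 to 0.029, that of the Nefm ratio -0.032 to 0.10 and that of the Nefh ratio -0.066 to 0.0066. The strain-by-injury difference was -0.083 to 0.077 for Ina, -0.072 to 0.041 for Prph and -0.065 to 0.14 for LncRNA2754. Between strains, LncRNA2754 differed by -0.076 to 0.086 in sham and -0.037 to 0.16 in SNI, and Nefm by -0.060 to 0.10 in SNI. The rat change of Prph was -0.040 to 0.17.

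Rat libraries share run numbers across groups. With the run as a replicate block, 0 of 2 members were called and 2558 features in all, against 3753 without it. Same-numbered libraries had deviations correlated at 0.05, -0.29, -0.11 and -0.094, so the number was not taken as a pairing. Mouse groups share no replicate numbers, so no such fit was made for them. Over all features, the B10.D2 comparison called 665 without SNI library 90 and 730 without SNI library 69, against 1130, and the sex comparison called 159 without BALB/c sham library 56, 35 when B10.D2 SNI library 89 was left out and 38 when BALB/c SNI library 65 was. For sex there were also 240 calls with DESeq2, 222 without a filter and 561 when scaled to neuron markers, against 60, and the rat comparison called 2229 when scaled to neuron markers and 6100 without the 2 midpoint libraries.

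Depth limits LncRNA2754 most. The number of libraries per group limits the exact tests of ratios, and the rat libraries give no values for 4 of the 6 genes.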
